A study of Mus musculus with 6 samples.

Results

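The sarcomeric myosin heavy chains described here are the products of 7 genes, Myh1, Myh2, Myh3, Myh4, Myh6, Myh7 and Myh8, followed probe by probe in the gastrocnemius muscle of young and aged mice. The members were found as the non-control probes whose RefSeq accession or gene name belongs to one of these genes. These genes are 7 of the 21368 named genes on the array, and they were read by 10 of the 55681 probes on the array, and 9 of them were among the 28002 probes bright enough to be tested, so that each gene had at least 1 tested probe. Total RNA from male C57BL/6J mice, 13 weeks old in the young group (n = 3) and 26 months old in the aged group (n = 3), was labelled with Cy3 and hybridized to single-colour Agilent arrays, 1 array per mouse. The strain is given in the methods of the study and the sex, tissue and age in the sample labels. None of the mice carried a transgene or received a treatment according to these sources, so age was the only stated difference between the groups. The comparison asks which muscle genes differ in expression between the ages.

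Myosin heavy chain is the motor protein of the thick filament, and each sarcomeric isoform sets a characteristic speed of shortening. Adult mouse limb fibres are classed by the isoform they carry, as type IIb (Myh4), IIx (Myh1), IIa (Myh2) and slow type I (Myh7), and the mouse gastrocnemius is largely a fast muscle. Myh6 is the alpha chain of the heart, while Myh3 and Myh8 are the embryonic and perinatal chains, which are made during development and again, for a time, in regenerating fibres.

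The family is arranged in a pair of gene clusters. In the GRCm38.p6 annotation, Myh3, Myh2, Myh1, Myh4, Myh8 and the extraocular gene Myh13 follow each other in this order on chromosome 11, and Myh6 and Myh7 are neighbours on chromosome 14. The promoter windows of the cluster are shown because most of the members lie in it. Among windows running from 250 bases before to 50 bases after the start of a gene, taken from RefSeq for GRCm38.p6, the 14-base run TTCTAATTATATCC, searched on both strands, was present in 4 of 32851 windows (0.0122%). These 4 windows were those of Myh4, Myh1, Myh2 and Myh8, in which the run began 158, 160, 125 and 54 bases before the gene start. The run was chosen as the longest that these windows had in common, so its presence in them is a description. The surrounding 78 bases of each window read as follows, with the shared run in capitals.
Myh4, chr11:67237622-67237699, plus strand: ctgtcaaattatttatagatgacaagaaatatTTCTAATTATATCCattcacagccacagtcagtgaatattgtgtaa
Myh1, chr11:67199910-67199987, plus strand: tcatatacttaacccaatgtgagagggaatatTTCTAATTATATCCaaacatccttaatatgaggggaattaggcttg
Myh2, chr11:67170870-67170947, plus strand: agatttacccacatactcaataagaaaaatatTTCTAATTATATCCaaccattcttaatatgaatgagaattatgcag
Myh8, chr11:67277038-67277115, plus strand: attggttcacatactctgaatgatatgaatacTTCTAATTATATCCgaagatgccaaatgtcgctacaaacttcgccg

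The window of Myh3 did not hold these letters. It is given in full because Myh3 was the one member with higher values in the aged group. In capitals are its single E-box (CANNTG, searched on both strands, in 72.3% of all windows) and a TATAAA sequence (either strand, 13.6% of all windows). Neither was particular to Myh3. The windows of Myh1, Myh2, Myh4, Myh6 and Myh8 also held TATAAA. E-boxes were also found for Myh4 (3), Myh8 (2), Myh7 (2) and Myh6 (1).
Myh3, chr11:67078050-67078349, plus strand: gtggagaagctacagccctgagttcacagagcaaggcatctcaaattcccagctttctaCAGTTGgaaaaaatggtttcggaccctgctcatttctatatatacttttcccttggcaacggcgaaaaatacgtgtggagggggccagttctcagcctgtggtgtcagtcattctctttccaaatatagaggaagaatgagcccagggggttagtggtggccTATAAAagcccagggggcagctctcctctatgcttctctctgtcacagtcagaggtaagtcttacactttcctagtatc

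Signals are given as log2 values relative to the 75th percentile of the same array, so that 0 is the 75th percentile itself and each unit is a doubling. A change is the aged mean minus the young mean on this scale. Each probe is described on its own, because probes of different sequence differ in brightness and their levels cannot be set against each other. On the arrays 48.7% to 53.8% of probes were well above background, and no spot was saturated. The 75th percentiles used for scaling ranged from 209.5 in young mouse 3 to 310.7 in aged mouse 1. Their part in the values below was not tested. Across all 28002 tested probes, 75 passed an adjusted p of 0.05 in limma (0.268%), 56 of them higher and 19 lower in aged mice, and the median change was -0.05. On 1073 probes young mouse 3 lay at least 1 log2 unit below both other young mice, against 183 and 359 probes for young mice 2 and 1. Aged mouse 1 lay that far above both other aged mice on 919 probes and that far below both on 828. The tissue label was borne out by the skeletal muscle markers Ckm, Acta1, Ttn, Neb, Des and Mb, which were all well above background on all 6 arrays and had summed signals of 2663 to 3629 on the linear scale, as multiples of the 75th percentile. Of the heart markers, Myl7, Nppb and Mybpc3 were not well above background on any array, and the others, Tnni3 and Nppa, together reached at most 0.368 on the same scale.

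None of the 9 tested myosin heavy chain probes passed the threshold of adjusted p 0.05, at which 0.268% of all tested probes were called (0.2% higher and 0.0679% lower). Of these 9 probes, 7 had lower and 2 had higher means in aged mice, with a median change of -0.18 beside -0.05 for all tested probes. An unadjusted limma p under 0.05 was found for 2 of the 9 member probes, against 13.7% of all tested probes. The groups did not overlap on the same 2 probes, against 21.3% of all tested probes. Both were probes of the embryonic gene Myh3.

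**Figure D1:**
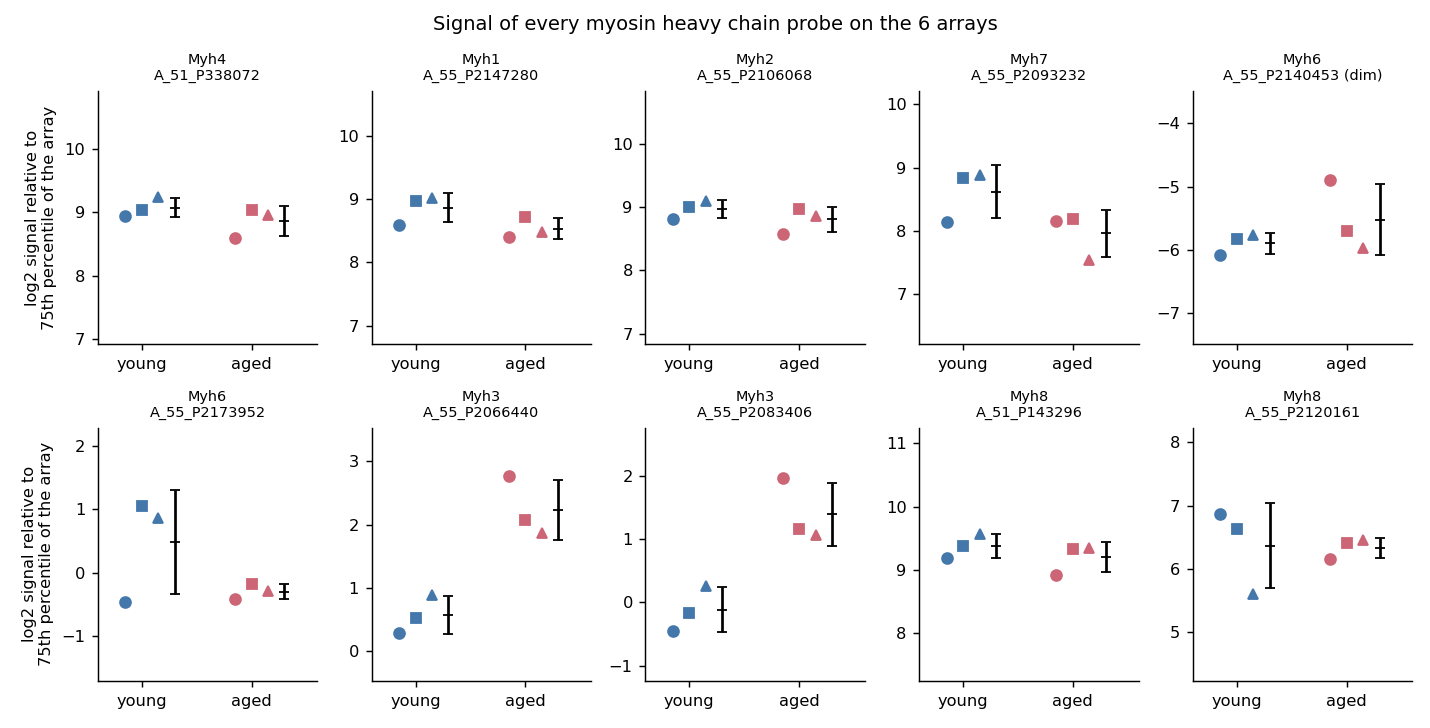
Log2 signal relative to the 75th percentile of the array for each of the 10 probes of the 7 genes, with the young mice in blue and the aged mice in red (circle, mouse 1; square, mouse 2; triangle, mouse 3) and the mean ± SD of each group in black (n = 3). All vertical axes span the same number of log2 units. The aged values of both Myh3 probes lie above all young values, while the groups overlap for the other probes.

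Among the adult fast isoforms, Myh4 encodes the IIb chain of the fastest fibres. Its probe (A_51_P338072) read 8.95, 9.03 and 9.24 in the young mice and 8.59, 9.04 and 8.96 in the aged mice. The groups overlapped, and aged mouse 1 was the lowest of the 6. The mean was 9.07 ± 0.15 in the young and 8.86 ± 0.24 in the aged group (SD, n = 3), a difference of -0.21 with a 95% interval of -0.66 to 0.24 (adjusted p = 0.646 in limma). As a fold, this interval runs from 0.631 to 1.18 times the young level. Before scaling, the Myh4 signals were 148013, 135400 and 126748 in the young mice and 119704, 150976 and 134522 in the aged mice.

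Myh1, the IIx chain, had the lowest of the 3 fast isoform changes. Its probe (A_55_P2147280) read 8.60, 8.97 and 9.02 in the young mice and 8.40, 8.72 and 8.47 in the aged mice. Only young mouse 1 fell within the range of the aged group. The difference was -0.33 (95% interval -0.78 to 0.12, adjusted p = 0.477 in limma), which is 0.795 times the young level.

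Myh2 encodes the IIa chain of fast oxidative fibres. Its probe (A_55_P2106068) read 8.82, 9.0 and 9.09 in the young mice and 8.58, 8.97 and 8.86 in the aged mice. Aged mouse 1 was again the lowest and the groups overlapped. Before scaling, young mouse 3 was the lowest at 114107, beside 118578 in aged mouse 1. The difference on the scaled values was -0.17 (95% interval -0.60 to 0.26, adjusted p = 0.701 in limma). For the 3 fast isoforms together, the intervals leave room for a fall to 0.580 times or an increase to 1.20 times the young level. These are unadjusted intervals of single probes. They do not mark the smallest difference that would pass the threshold adjusted over all probes.

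The brightest probes as a whole were also lower in aged mouse 1. The 445 tested probes with a mean signal above 8 had a median change of -0.16, and relative to the young mean the median was -0.33 for aged mouse 1 but only -0.02 and -0.10 for aged mice 2 and 3. The probes of Myh4, Myh1, Myh2 and Myh7, and one of Myh8, belong to this brightness class. The part of this shift in their values was not tested.

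Slow fibres carry Myh7, the beta chain of the slow twitch fibres and of the heart ventricle. Its probe (A_55_P2093232) read 8.15, 8.84 and 8.88 in the young mice and 8.16, 8.19 and 7.54 in the aged mice. Young mouse 1 was level with aged mice 1 and 2, the other young mice were higher, and aged mouse 3 was the lowest. The young mean of 8.62 ± 0.41 compares with an aged mean of 7.96 ± 0.37 (SD, n = 3). The difference of -0.66 had a 95% interval of -1.33 to 0.01 and did not pass the threshold (adjusted p = 0.370 in limma, exact permutation p = 0.3). With the row of the array on the slide as a block, which compares aged mouse 1 with the young mice of its row, it was -0.47.

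Myh6, the fast alpha chain of the heart, had a pair of probes on the array. One of them (A_55_P2140453) was not well above background on any of the 6 arrays and was not tested. The other (A_55_P2173952) was well above background on all of them and read -0.47, 1.04 and 0.87 in the young mice and -0.43, -0.18 and -0.29 in the aged mice. Young mice 2 and 3 stood above the aged group and young mouse 1 was the lowest of all. The difference of -0.78 (95% interval -1.72 to 0.16, adjusted p = 0.432 in limma) therefore lay within the spread of the young mice. Leaving out young mouse 1 gave -1.26 with an adjusted p of 0.177 in limma. The probes of Myh6 gave no shared reading, as one of them was not measured above background, and of the 5 heart markers Nppa was well above background on all 6 arrays, Tnni3 on 3 of them, and Myl7, Nppb and Mybpc3 on none.

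Of the developmental chains, Myh3, the embryonic chain, was measured by a pair of probes. The first (A_55_P2066440) read 0.30, 0.53 and 0.89 in the young mice and 2.77, 2.07 and 1.87 in the aged mice. Every aged mouse was above every young mouse, and aged mouse 1 was the highest. In linear terms the probe gave 1.23, 1.44 and 1.85 times the 75th percentile in young mice and 6.82, 4.19 and 3.65 times in aged mice. The young mean was 0.57 ± 0.30 and the aged mean 2.23 ± 0.47 (SD, n = 3), a difference of 1.66 (SE 0.29, 95% interval 0.98 to 2.34), or 3.17 times the young level with an interval of 1.98 to 5.08.

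This was the smallest p among the members, yet the threshold was not passed after adjustment over all probes (adjusted p = 0.10 in limma). The exact two-sided permutation test gave p = 0.1, the smallest value that 3 against 3 mice allow. A change at least this large and in the same direction was found for 302 of the 28002 tested probes (1.08%).

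The second Myh3 probe (A_55_P2083406) read -0.45, -0.18 and 0.26 in the young mice and 1.96, 1.16 and 1.05 in the aged mice. The order of the 6 mice was the same as on the first probe and the groups again did not overlap. The difference was 1.51 (95% interval 0.79 to 2.24, adjusted p = 0.144 in limma), or 2.85 times the young level. The probes of Myh3 followed each other closely over the 6 arrays (Pearson r = 0.997), and the gap between them varied by 0.28 log2 units in all. With the slide row as a block, which compares only aged mouse 1 with the young mice, the differences were 2.20 and 2.08. Both probes read the same 6 RNA samples, so the second probe is not a further replicate of the mice.

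Myh8, the perinatal chain, was read by a pair of probes that disagreed. The brighter (A_51_P143296) read 9.19, 9.39 and 9.57 in the young mice and 8.92, 9.33 and 9.34 in the aged mice. The groups overlapped and aged mouse 1 was the lowest, as for Myh4 and Myh2. The difference was -0.18 (95% interval -0.65 to 0.29, adjusted p = 0.699 in limma).

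The dimmer Myh8 probe (A_55_P2120161) read 6.86, 6.64 and 5.6 in the young mice and 6.16, 6.40 and 6.45 in the aged mice. Young mouse 3 was the lowest on this probe and, after scaling, the highest on the brighter one. The difference was -0.03 (95% interval -0.83 to 0.77, adjusted p = 0.974 in limma), and without young mouse 3 it was -0.41. Over the 6 arrays the scaled values of the Myh8 probes had a Pearson r of -0.34. Before scaling, the brighter probe read 174574, 172866 and 159388 in the young mice, with young mouse 3 the lowest of them. The gap between the probes, which scaling leaves unchanged, ranged from 2.32 to 3.97 log2 units. The sequences of the probes were not used here, so which transcripts of the closely similar isoforms each probe can bind was not tested.

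**Figure D2:**
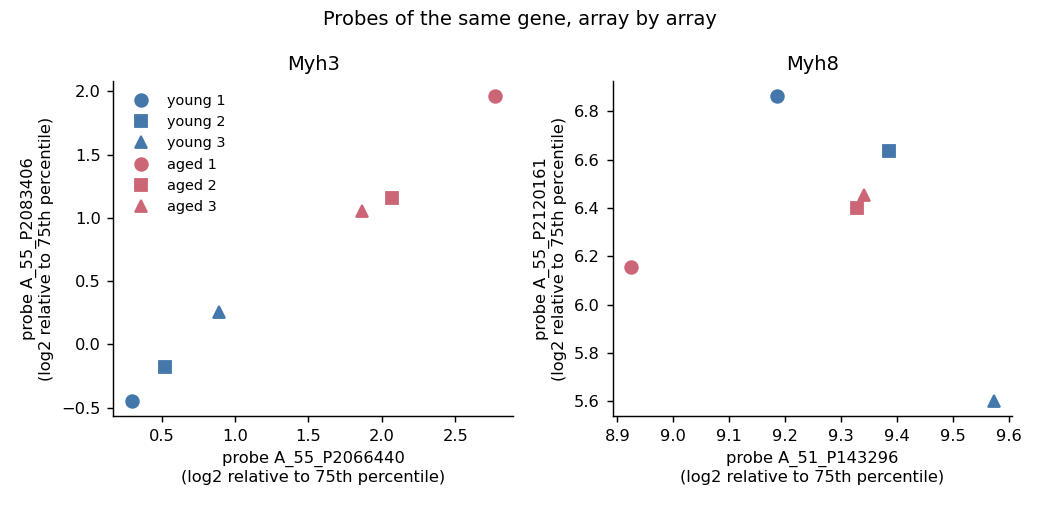
Log2 signal relative to the 75th percentile of the array on the first (horizontal axis) and second (vertical axis) probe of Myh3 (left) and Myh8 (right), 1 point per mouse, with axes scaled to each gene. The Myh3 points rise along a line with young mice below aged mice (r = 0.997), whereas the Myh8 points show no such line (r = -0.34) and young mouse 3 lies apart.

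**Figure D3:**
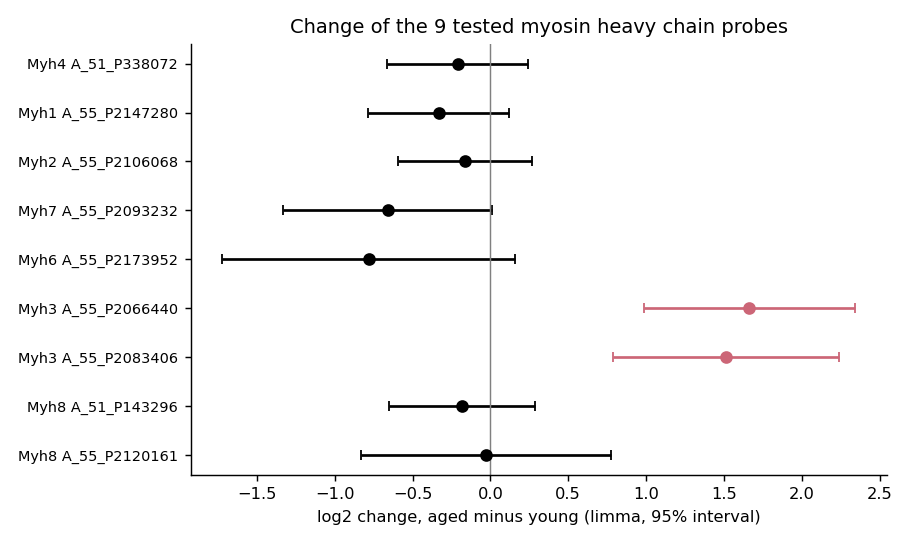
Change of each tested probe, aged minus young, on the log2 scale (horizontal axis), with the 95% interval of the limma fit as bars (3 mice per group). The intervals of the Myh3 probes, in red, lie above 0, from 0.79 upward, and those of the other 7 probes include 0, although none of the 9 passed the adjusted threshold.

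Ratios within an array do not depend on a constant scaling factor between arrays. They can still carry a shift that varies with brightness, such as the -0.33 of the brightest probes in aged mouse 1. Myh4 itself was -0.48 from the young mean in that mouse. The part of this shift in the ratios was not tested. Myh4 was taken as the reference and each of the other isoforms, at its brightest tested probe, was expressed relative to it and to the young mean, which gave 6 comparisons. For Myh3 the ratio to Myh4 lay between -0.15 and 0.15 on the log2 scale in the young mice and was 2.68, 1.53 and 1.41 in the aged mice. The groups did not overlap, and the mean difference of 1.88 is a ratio of 3.67 (exact permutation p = 0.1, 0.6 after Benjamini-Hochberg adjustment over the 6 comparisons).

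The fast and perinatal ratios had mean differences of 0.12 or less in size. Myh2 relative to Myh4 differed by 0.04 (exact permutation p = 0.4), with aged values of 0.09, 0.04 and 0.01. Myh8 at its brighter probe differed by 0.03 (exact permutation p = 0.6), and Myh1 differed by -0.12 (exact permutation p = 0.5). The slow chain Myh7 was 0.02, -0.40 and -0.97 relative to Myh4 in aged mice 1, 2 and 3, a mean of -0.45 (exact permutation p = 0.2). The aged mice thus ranged from the young level to well below it, and within the slide row of the young mice, which holds aged mouse 1, no lower ratio was seen (0.02). Myh6 relative to Myh4 differed by -0.57 (exact permutation p = 0.4), within the range of the young mice, whose values ran from -0.82 to 0.60. The adjusted p was 0.6 for each of the 6 comparisons. These are ratios between probes, and which of the similar isoforms each probe can bind was not tested.

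**Figure D4:**
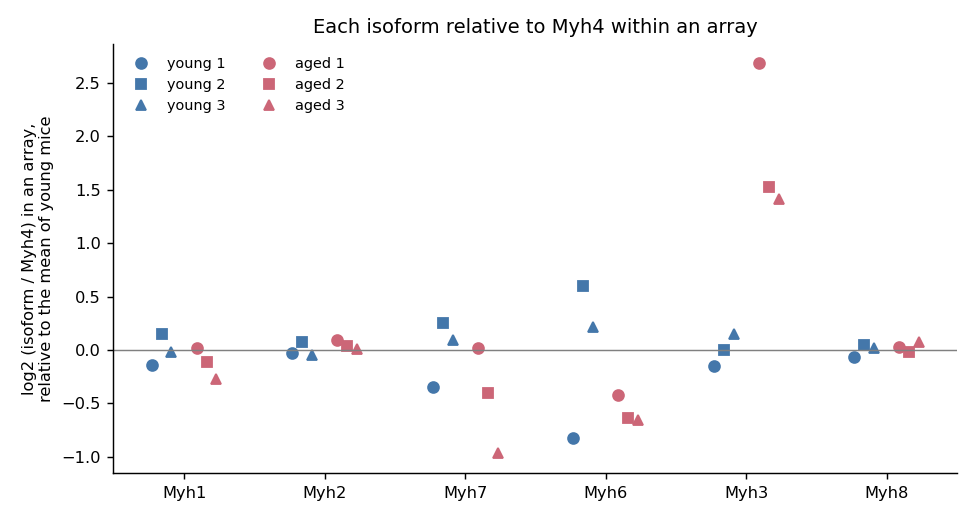
Log2 ratio of the brightest tested probe of each isoform to the Myh4 probe within an array, relative to the mean of the young mice (vertical axis). The 6 isoforms are on the horizontal axis, with 1 point per mouse, young in blue and aged in red. The aged points of Myh3 lie at 1.41 to 2.68, above all young points, those of Myh7 spread from 0.02 down to -0.97, and those of Myh2 and Myh8 lie within 0.1 of the young mean.

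The probes also differed in how they varied from mouse to mouse, including those of the same gene Myh8. The SD within groups was 0.18 to 0.22 for Myh2, Myh1, Myh4 and the brighter Myh8 probe, beside a median of 0.163 for tested probes with a mean above 8. It was larger for Myh7 (0.39), which belongs to the same brightness class. The SD was 0.40 and 0.43 for the Myh3 probes, 0.49 for the dimmer Myh8 probe and 0.59 for Myh6, beside a median of 0.285 over all tested probes. Across the 6 arrays, Myh4 had a Pearson r of 0.973 with Myh2, 0.972 with Myh8 and 0.819 with Myh1. Myh3 had negative coefficients with all other members, from -0.50 to -0.63. These coefficients are descriptions over 6 arrays that share the age difference and the scaling of each array. Binding of a probe to transcripts of several isoforms was not tested.

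Myh7b, a slow tonic myosin heavy chain, had a higher Pearson r with Myh7 (0.981 over the 6 arrays) than any of the other members had. The remaining myosin genes were not compared with Myh7 in this way. Myh7b read 1.29, 1.96 and 2.0 in the young mice and 1.25, 1.01 and 0.35 in the aged mice, without overlap. Its change was -0.88 (adjusted p = 0.304 in limma). The 6 other myosin heavy chain genes listed were all tested, and aged mice had higher means for 3 and lower means for 3, none of them past the threshold. The other lower genes were Myh13, the extraocular chain, at -1.34 (adjusted p = 0.293 in limma), with overlapping groups and well above background on only 2 of the 3 aged arrays, and the smooth muscle chain Myh11 at -0.52 (adjusted p = 0.355 in limma), or -0.33 without aged mouse 3.

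By genome-wide likeness, a search over 12683 named genes gave the 3 genes with the highest Pearson r over the 6 arrays for each member. For Myh4 these were Cox6c (0.997), Rpl36 (0.996) and 4932412D23Rik (0.993), for Myh1 Ppa2 (0.990), Tmem94 (0.990) and Espnl (0.985), and for Myh2 Eno3 (0.992), 2610028H24Rik (0.989) and Gm6498 (0.988). Cox6c is a subunit of cytochrome c oxidase, Rpl36 a ribosomal protein and Eno3 the muscle enolase of glycolysis. For Myh7 they were Baz2b (0.993), Hoxb4 (0.992) and Kif2a (0.991), and for Myh6 Acaa1a (0.982), Ube2g1 (0.982) and Cox4i1 (0.979). Myh3 was most like Rb1 (0.996), Rsph3b (0.995) and Rhpn2 (0.995), and the brighter Myh8 probe was most like Chchd2 (0.999), Slc25a4 (0.998) and Pvalb (0.996). Rb1 is the retinoblastoma protein and Pvalb the calcium buffer of fast fibres. With 6 arrays, between 16 genes (Myh6) and 137 genes (Myh4) had a coefficient above 0.95 with a member. These coefficients also share the age difference and the scaling of each array. On the brighter Myh8 probe the order of the 6 mice was the reverse of that of their 75th percentiles. The part of the scaling in these likenesses was not tested.

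The partner genes of each fibre class were listed beside the heavy chains. Of 11 genes of fast fibres, Tnni2 had no matched probe and 10 were tested, with 8 lower, 2 higher and none past the threshold or an unadjusted p of 0.05, and a median change of -0.14. Aged mouse 1 was the lowest of the 6 mice for 7 of these 10 genes, and without it the median was -0.02. The largest changes were those of the regulatory light chain Mylpf at 1.29 (adjusted p = 0.472 in limma), the fast troponin T gene Tnnt3 at -0.27 and the fast calsequestrin Casq1 at 0.22. Mylpf read 4.93, 4.52 and 1.96 in the young mice and 4.97, 5.10 and 5.20 in the aged mice. The young value of 1.96 belongs to young mouse 3, which was also the lowest young mouse for Casq1 and for the dimmer Myh8 probe. Without it Mylpf differed by 0.36 and Casq1 by -0.34.

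Of 11 genes of slow fibres, all were tested, 9 were lower and 2 higher, and none passed the threshold, with a median change of -0.58. Aged mouse 3 was the lowest of the 6 mice for 8 of the 11 genes, as it was for Myh7 and Myh7b, and without it the median was -0.34, with 9 genes still lower. An unadjusted p under 0.05 in the lower direction was found for 4 of them (Tpm3, Myl3, Tnnt1 and Atp2a2), against 7.67% of all tested probes, and non-overlapping lower values for 3 (Myl3, Tnnt1 and Atp2a2), against 13.3%. The other Tpm3 probes gave 0.11 and -0.91. The light chain Myl6b had the largest change, -1.09, with overlapping groups (adjusted p = 0.385 in limma), and -0.57 without aged mouse 3. The slow calcium pump gene Atp2a2 read 4.83, 5.14 and 4.98 in young and 4.56, 4.31 and 3.86 in aged mice, a change of -0.74 (adjusted p = 0.250 in limma), while its other probe gave -0.21. The slow troponin I gene Tnni1 differed by -0.61 (adjusted p = 0.465 in limma), and by -0.34 without aged mouse 3. For Myl3, the slow and ventricular light chain, and for Tnnt1, the slow troponin T gene, the changes were both -0.58. As these are whole muscle samples, fewer slow fibres and less of these RNAs per fibre cannot be told apart.

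The list placed beside Myh3 holds 11 genes of muscle development and denervation. Of these, 8 were well above background on all 6 arrays, and the other 3 (Chrng, Mymk and Mymx) passed the filter mainly through the aged arrays and are left out of the counts. All 8 were higher in aged mice, 5 with an unadjusted p under 0.05, against 6.05% of all tested probes higher, and 4 without overlap, against 7.95%, and none passed the threshold. Their median change was 1.09. These counts take the brightest probe of each gene, and of the other probes of Ncam1, an adhesion molecule of denervated fibres, one gave -0.44 and one 1.26. Leaving out 1 mouse at a time gave medians of 0.98 to 1.30, with 7 or 8 of the 8 genes higher. The myogenic factor Myog read -0.52, -0.22 and 0.04 in the young mice and 1.12, 2.20 and 3.39 in the aged mice, a change of 2.47 (adjusted p = 0.160 in limma). The acetylcholine receptor subunit Chrna1 read 3.30, 3.19 and 3.09 in young and 4.14, 5.05 and 5.90 in aged mice, a change of 1.83 (adjusted p = 0.168 in limma), with 1.28 on its other probe.

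The order of the aged mice varied among these genes. Aged mouse 3 was the highest of the aged mice for 4 of the 8, Myog and Chrna1 among them, while 3 of the 8 (Myl4, Tnnt2 and Ncam1) had the order of Myh3, with aged mouse 1 highest and aged mouse 3 lowest. Mymx, a fusion peptide of myoblasts, differed by 3.67 (adjusted p = 0.215 in limma), with 2 of 3 young arrays well above background. Without young mouse 3, the lowest at -4.25, Mymx differed by 2.75, and without aged mouse 1 by 4.42. The fetal receptor subunit Chrng was well above background on all aged and on no young arrays. Its aged mean was 2.50 times the lowest signals well above background on the young arrays, without allowance for spread among the aged mice. Chrng passed the filter through the aged arrays alone, so this fold and its adjusted p of 0.151 in limma support nothing further.

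**Figure D5:**
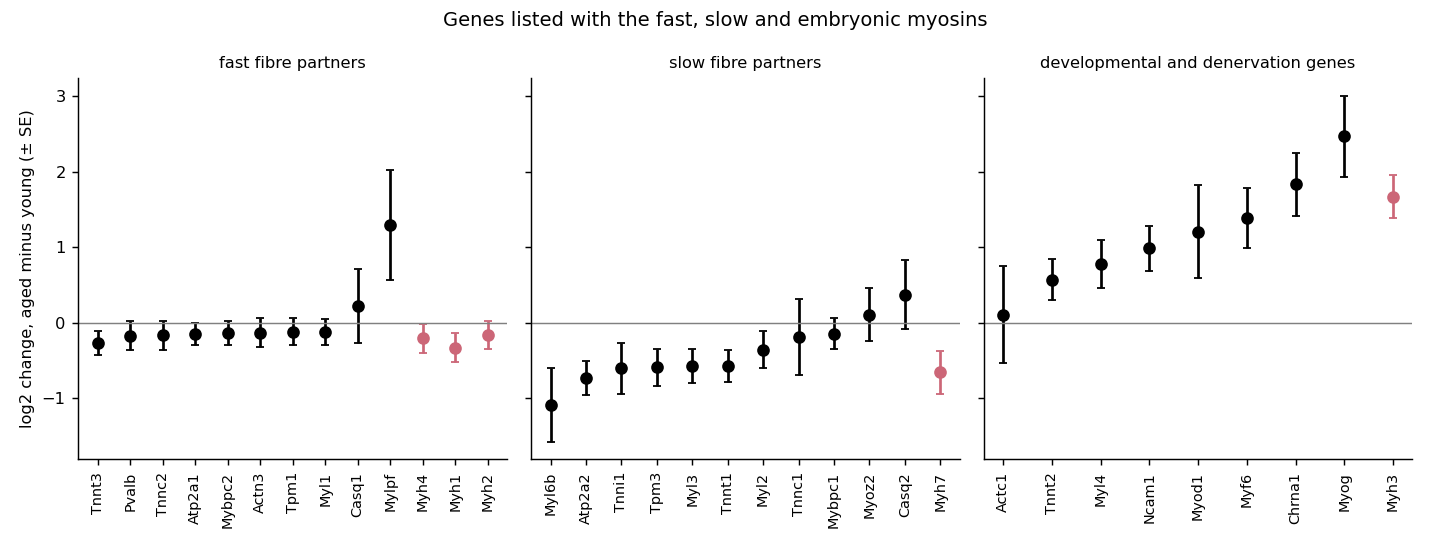
Log2 change, aged minus young, ± SE of the limma fit (vertical axis) for the tested genes of the fast fibre, slow fibre and developmental lists (black), with the heavy chain of each class at its brightest probe (red). Only genes well above background on all 6 arrays are drawn. The 8 developmental genes lie above 0, most slow fibre genes lie below it with a median of -0.58, and most fast fibre genes lie near -0.14.

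Regulators of fibre type and of myosin assembly and turnover were examined in the same way. Of 18 fibre type regulators, 17 were tested, 5 were higher and 12 lower, with a median change of -0.09 and none past the threshold. Large changes were those of Rcan1, an inhibitor of calcineurin, at 1.53 (adjusted p = 0.343 in limma) and the TEA-domain factor Tead4 at 0.95 (adjusted p = 0.322 in limma). Without aged mouse 3 Rcan1 differed by 0.99. Of 10 genes of myosin folding, the M-band and myosin degradation, 6 were higher and 4 lower, with a median change of 0.11 and none past the threshold. Among them the chaperone gene Hsp90aa1 differed by 1.19 (adjusted p = 0.494 in limma), the M-band gene Myom3 by 0.86 (adjusted p = 0.327 in limma), and Trim63, a ubiquitin ligase that acts on myosin heavy chain, by 0.61 (adjusted p = 0.686 in limma). These values moved when single mice were left out. Of the 10 genes, Myom3 alone had higher values in aged mice without overlap, against 7.95% of all tested probes. Without aged mouse 1, Hsp90aa1 differed by 2.07, Myom3 by 0.53 and Trim63 by 0.12. Without young mouse 3 Trim63 differed by 0.08, without young mouse 2 by 0.97 and without aged mouse 2 by 1.15, and without aged mouse 3 Hsp90aa1 differed by 0.69.

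Genes next to the clusters were read as well, and their values were seen before they were chosen for mention. Sco1 and Adprm, which precede Myh3 in the annotation, differed by 0.10 and 0.09, and Tmem220 by -0.37, beside 1.66 for Myh3. The long non-coding RNA 2310065F04Rik, between Myh3 and Myh2, differed by -0.28. On chromosome 14, Mhrt, the non-coding RNA between Myh6 and Myh7, differed by 0.13, and Cmtm5, which precedes Myh6, by -1.58 without overlap (adjusted p = 0.190 in limma).

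Markers of other tissues were read beside these values. The smooth muscle markers (5 of 5 tested) had sums of 69.8 to 118 multiples of the 75th percentile in young and 65.0 to 75.9 in aged mice, with a median change of -0.26, and the fat markers (4 of 5 tested) had sums of 135.5 to 148 in young and 104 to 135 in aged mice. None of these markers passed the threshold. The sum of the skeletal muscle markers was 3120 to 3629 in young and 2663 to 3437 in aged mice, and their part in the values of the heavy chains was not tested.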

How the data were processed

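Single-colour Agilent arrays of gastrocnemius RNA from 3 young and 3 aged mice were used, on 1 slide. The deposited files hold linear intensities, background-subtracted within each array by the authors with Agilent Feature Extraction (11.0.1.1 in the file headers, 9.5 in the submitters' processing notes). The methods of the study name no normalization or test for them. The series matrix held identical intensities.

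Flagged spots were removed, duplicate spots were averaged, and log2 signals were expressed relative to the array's own 75th percentile. Accessions were matched to RefSeq GRCm38.p6 symbols for 28341 of 55681 probes, and 12 probes with only flagged spots were left out. Probes well above background on at least 3 of 6 arrays were fitted on age with lmFit and eBayes (limma 3.58.1, R 4.3.3), with Benjamini-Hochberg adjustment over all 28002 probes and a threshold of 0.05. The number of arrays limits the precision. The code was also tested on simulated data. Ratios to Myh4 used the exact two-sided permutation test.

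The text names every member probe, up to 3 genes with the largest absolute change in each list together with any past the threshold, and the 3 genes most like each member. A gene of the fibre type list that this rule names is not reported here. Other genes named were chosen after their values were seen. The members and lists were chosen with earlier results of these data known. Alternatives were normexp (offset 50, on median spot signals), quantile and median scaling, a percentile taken over detected probes only, other filters, a mean-variance trend, the series matrix, slide row and replicate number as blocks, saturated probes left out, 1 probe per gene or the mean of its probes, and leaving out each mouse. The labels call the samples separate mice by number only.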

Additional observations from a re-analysis of the deposited data

How the results depend on the processing

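None of the member probes passed the adjusted threshold under any of the 18 alternatives, and both Myh3 probes stayed higher in aged mice in all that held them. Among these, the series matrix and the removal of saturated probes could only repeat the main fit. The intensities were identical and no spot was saturated. The change of the first Myh3 probe ranged from 1.40 to 2.20 with adjusted p from 0.0615 to 0.309 (limma), and that of the second from 1.23 to 2.08 with adjusted p from 0.0907 to 0.367. Leaving out 1 mouse at a time gave 1.40 to 1.85 and 1.23 to 1.70. Over all alternatives the changes of Myh4 (-0.48 to -0.06), Myh1 (-0.48 to -0.18), Myh2 (-0.39 to -0.02), Myh7 (-0.90 to -0.45) and Myh6 (-1.26 to -0.40) kept their sign. The Myh8 probes did not. The brighter turned to 0.0087 under quantile normalization, and the dimmer to 0.051 under quantile normalization, 0.0042 with the 75th percentile over detected probes, and 0.22, 0.11 and 0.06 without young mouse 1, young mouse 2 or aged mouse 1. Relative to Myh4, the slide row block turned Myh1 to 0.023 and Myh7 to 0.018, and leaving out young mouse 1 turned Myh8 to -0.0075. The row block compares only aged mouse 1 with the young mice. Leaving out 1 mouse, the ratio to Myh4 ranged from -0.19 to -0.04 for Myh1, 0.02 to 0.08 for Myh2, 1.47 to 2.11 for Myh3, -0.98 to -0.27 for Myh6, -0.68 to -0.19 for Myh7 and -0.0075 to 0.051 for Myh8. The dimmer Myh8 probe ranged from -0.41 to 0.22. Median scaling moved the median of all probes from -0.05 to -0.20.

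Leaving out 1 mouse, chosen after seeing the data, moved the median change of the fast fibre list between -0.21 and -0.02, of the slow list between -0.66 and -0.34, and of the developmental list between 0.98 and 1.30.

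The number of probes past the threshold over the whole array moved more. It was 75 as reported, 12 with no filter, 44 when every array had to pass the background limit, 37 with the slide row as a block, and 61 to 97 under the alternatives in scaling, background, variance model and values. Leaving out 1 mouse gave 2 (without aged mouse 3) to 229 (without aged mouse 1), with 13, 14 and 25 without young mice 1, 2 and 3 and 16 without aged mouse 2. The replicate block, with mouse numbers as pairs, left 9 probes and 0 member probes. Same-numbered mice had correlations of -0.06, -0.28 and 0.02, and differently numbered mice had -0.21 to 0.36. With so few mice, these values cannot settle whether the numbers pair them. The causes of these moves were not tested.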
